A study of Rattus norvegicus with 2 samples.

Results

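Voltage-gated calcium channels, sodium channels, hyperpolarization-activated pacemaker (HCN) channels and transient receptor potential (TRP) channels carry the cation currents that start and shape the heartbeat. The members described here are all genes whose symbol in the platform's annotation begins with Cacna, Cacnb, Cacng, Scn, Hcn, Trpc, Trpm or Trpv followed by a digit. This rule found 60 of 16592 named genes. They comprise 25 calcium channel genes, 11 sodium channel genes, 3 HCN genes, 20 TRP genes and Trpc4ap, which the pattern takes in although it encodes a TRPC4-binding adaptor and not a channel. The rule used no measured value.

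RNA came from neonatal rat ventricular myocytes, heart muscle cells taken from rat pups aged 1 to 2 days, which recovered for 24 hours, moved to low-serum medium and then received an adenovirus. One condition carried a short hairpin RNA (shRNA) against Mef2d, a muscle transcription factor gene, and the control carried an shRNA against lacZ, a bacterial gene absent from rat cells. Both conditions therefore share the adenovirus, the low-serum medium and the harvest 3 days after transduction. Each condition was hybridised to 1 array, a pool of 6 biological replicates by the design text, while the extraction protocol speaks of 3 per condition. With 1 array per condition no error or p-value can be given, and every difference describes this pair of arrays.

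Levels are log2 values made with RMA, an array summary method, and differences are the Mef2d-labelled array minus the lacZ-labelled array on that scale. Mef2d itself read 8.22 on the lacZ-labelled and 8.94 on the Mef2d-labelled array, which goes against the label, so both arrays are called by their labels and each direction would turn if the labels were exchanged. All 10 cardiac myocyte markers lay above the low-level filter described next, as did 6 of 6 fibroblast, 4 of 4 smooth muscle and 5 of 5 macrophage markers. Of 9 neuron markers 3 lay above it, and of 4 endothelial markers 1. The cultures thus held signal of genes that mark other heart cells. Since 11614 of 16592 named genes pass that filter, passing it does not by itself show that a cell type was present. In RNA from whole cultures, fewer cells of a type and less RNA per cell cannot be told apart.

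In the excitable heart cell, sodium channels drive the upstroke of the action potential and L-type calcium channels admit the calcium that triggers release from the sarcoplasmic reticulum. T-type calcium channels and HCN channels are known for pacemaking, and their expression in ventricular muscle is higher before and around birth than in the adult. TRP channels are a mixed family of cation channels, among them receptor-operated, calcium-activated and heat- or stretch-sensitive members. Calcium and sodium channels are built around a large pore-forming subunit with smaller partners that set its trafficking and gating.

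RMA values carry no detection call, so dim genes were set against 1146 olfactory receptor genes, most of which heart cells are not known to use. The middle receptor gene had a mean level of 3.41 and 95% of them lay under 4.88. Probe sets differ in affinity, so this yardstick serves only to mark signal that cannot be told from background, and levels are not ranked between genes. A filter at the 30th percentile of all named genes (mean level 4.85) kept 29 of the 60 channel genes and left 31 under it. Of the 29, 28 also lay above the 95% mark of the receptor genes, the exception being Cacna1i at 4.87.

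**Figure D1:**
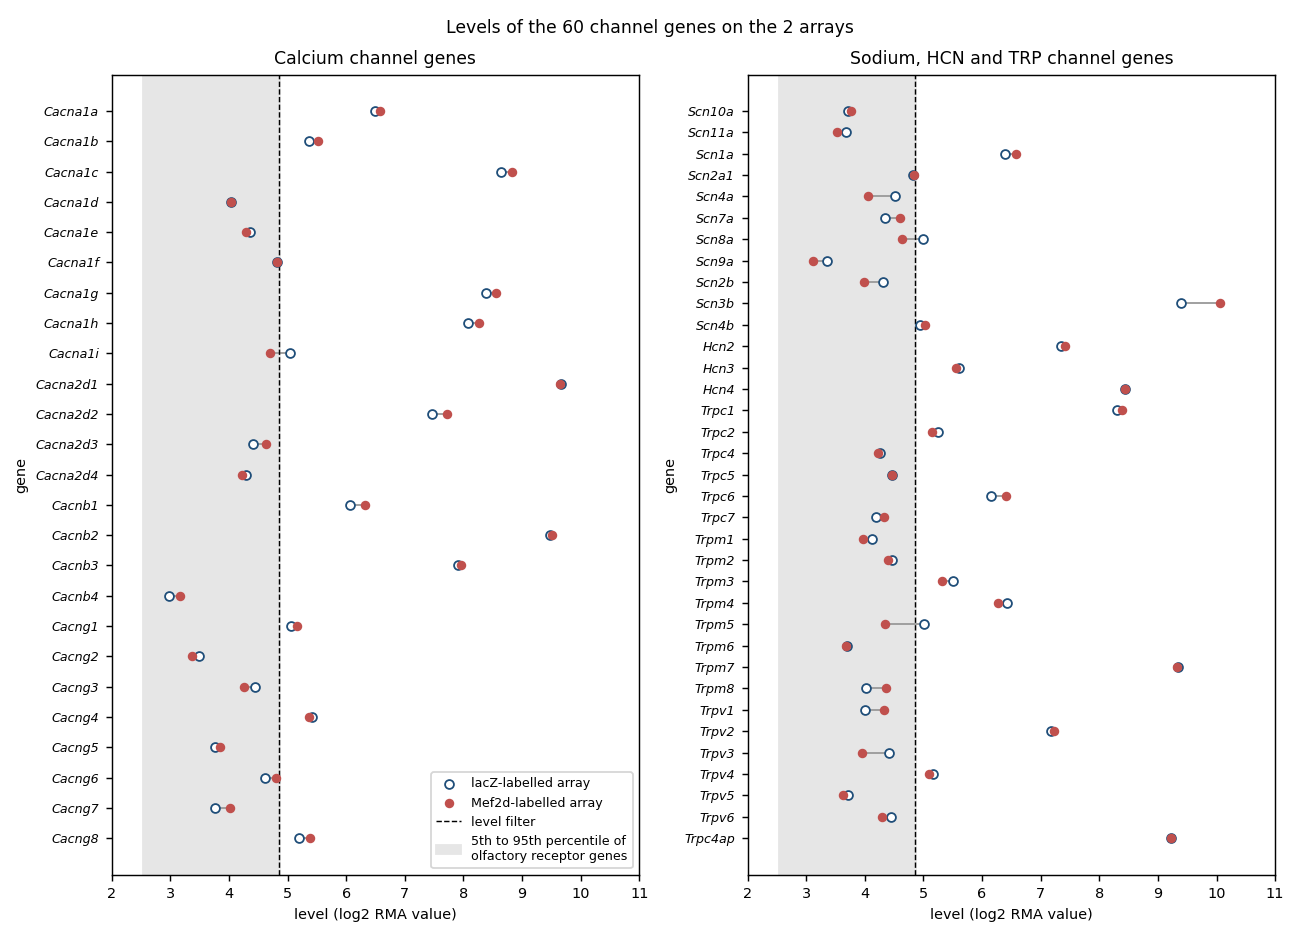
Level of each of the 60 genes in log2 RMA units (x axis), with an open circle for the lacZ-labelled and a filled circle for the Mef2d-labelled array. The grey band spans the 5th to 95th percentile of the olfactory receptor genes (2.54 to 4.88) and the dashed line is the level filter at 4.85. Scn3b has the widest gap among genes to the right of the line, and 31 genes have mean levels to its left.

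The largest difference among the channel genes above the filter was that of Scn3b (probe set 245956_at), which encodes an accessory beta subunit that modulates sodium channel gating and cell-surface expression. Its level was 9.39 on the lacZ-labelled array and 10.05 on the Mef2d-labelled array, a difference of 0.66 or 1.58-fold. Scn3b was thus clearly above the olfactory receptor range on both arrays. It was the only one of the 29 genes to reach 1.5-fold (0.58 on the log2 scale) in either direction. Among all 11614 named genes past the filter, 0.844% reached that size with the higher value on the Mef2d-labelled array and 0.534% with the lower, 1.38% in all. Scn3b and 62 others had a difference at least as high. Among genes of similar level the scatter of the differences (a robust SD) was 0.14, and Scn3b lay 4.58 such units above their centre. Such scatter holds noise and true differences alike and does not replace a replicate error.

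Neurons are also known to use this subunit. Of 9 neuron markers, Prph, Th, Snap25, Syt1, Elavl4 and Chat had mean levels under the filter. The 3 above it were Dbh, with 4.90 on the lacZ-labelled and 5.15 on the Mef2d-labelled array, Tubb3 with 6.25 and 6.08, and Uchl1 with 9.39 and 9.26. Their signs were mixed. The summed linear level of the 9 was 883 and 818, a sum that Uchl1 dominates, and that of 2 Schwann cell markers was 109 and 103. Over the 10 myocyte markers, of which Cacna1c is itself a channel gene, the sums were 23872 and 24697. Their signs were mixed too, with 6 above 0 and 4 below, from -0.46 for Myh6 to 0.385 for Myh7. The sum of 6 pacemaker and conduction markers was higher on the Mef2d-labelled array, at 1023 and 1202. Bmp4 (9.33 and 9.70) had the highest level and dominates that sum. Of the 4 above the filter, 3 were above 0, Bmp4, Gja5 at 0.17 and Tbx18 at only 0.003, while Tbx3 was at -0.26. Shox2 (-0.23) and Isl1 (-0.05) lay under the filter. Sums of macrophage, smooth muscle and fibroblast markers were lower on the Mef2d-labelled array. Macrophage markers summed to 1116 and 955 with 4 of 5 below 0, smooth muscle markers to 4041 and 3663 with 4 of 4 below 0, and fibroblast markers to 15827 and 15500 with 4 of 6 below 0. The part of any cell type in the channel differences was not tested.

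The differences of the 29 channel genes, Scn3b included, spread about as widely as those of other genes. Their robust SD was 0.17, as over all genes past the filter, and 24 of the 29 differed by less than 0.2 (74.8% of all genes). Beyond 1 robust SD of genes of similar level lay 11 of the 29, against 32.5% of all genes. After Scn3b the next highest difference was that of Trpc6 at 0.27, followed by Cacnb1 at 0.25. Cacna1i had the lowest at -0.34, then Trpm3 at -0.19 and Trpm4 at -0.16. Lowering the threshold to 1.3-fold added no channel gene, whereas 5.98% of all genes past the filter reached that size. Above 0 were 20 of the 29 genes (69.0%) and below 0 were 9, with a median of 0.06, while 48.2% of all genes were above 0 and their median was -0.01. After quantile normalization the split was 18 to 11. These shares have no replicate check.

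**Figure D2:**
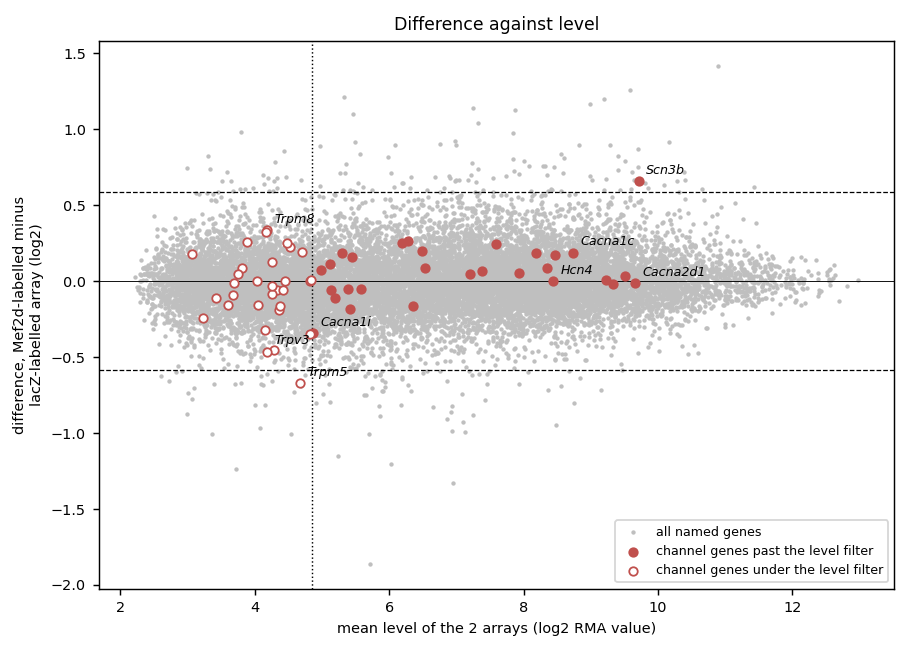
Difference between the arrays (y axis, log2) against the mean level of both (x axis, log2 RMA value), with all named genes in grey and channel genes in red, filled past the level filter (dotted line) and open under it. Dashed lines mark 1.5-fold, beyond which lie Scn3b at 0.66 and, under the level filter, Trpm5 at -0.67.

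The pore-forming subunits of high-voltage-activated calcium channels read slightly higher on the Mef2d-labelled array where they were above the filter. Cacna1c (probe set 24239_at), the pore of the L-type channel of ventricular muscle, had levels of 8.64 and 8.83, a difference of 0.19 or 1.14-fold. Of 11614 genes, 1642 were at least as much higher, so the value lies well within the scatter of genes. Cacna1a and Cacna1b, pores of the P/Q- and N-type channels best known from nerve terminals, differed by 0.09 (6.50 and 6.58) and 0.16 (5.36 and 5.52). Cacna1d, a second L-type pore known from sinoatrial cells, was listed at 4.03 on both arrays. Together with Cacna1e (4.36 and 4.30) and the retinal pore gene Cacna1f (4.83 on both) it lay under the filter, so no direction is given for it.

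T-type calcium channels open near the resting potential. Cacna1g had levels of 8.39 on the lacZ-labelled and 8.56 on the Mef2d-labelled array, and Cacna1h had 8.08 and 8.27. Their differences of 0.17 and 0.19 were close to that of Cacna1c, each 1.16 to 1.22 robust SDs from the centre of genes of similar level. Cacna1i, the T-type pore best known from brain, had the opposite sign with 5.04 and 4.70. Both of its values sit at the upper edge of the olfactory receptor range.

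The calcium channel partners ranged from nearly equal values to differences of 0.25. Cacna2d1, the alpha2delta subunit that helps bring the pore to the membrane, had levels of 9.67 and 9.65 (difference -0.01). Cacnb2, the main cardiac beta subunit, which binds the pore from the cytoplasm, had 9.49 and 9.52 (difference 0.03), and Cacnb3 had 7.91 and 7.96. Larger differences belonged to Cacna2d2, at 7.47 and 7.71 (0.24), and Cacnb1, the beta subunit best known from skeletal muscle, at 6.06 and 6.32 (0.25). Cacnb2 has no settled sign, since its difference was -0.0034 after quantile normalization, and Cacnb4, at 2.98 and 3.16, lies inside the receptor range. Cacna2d3 (4.41 and 4.63) and Cacna2d4 (4.30 and 4.22) lay under the filter.

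The gamma subunit genes lay near or under the filter. Of 8, the 3 above the filter were Cacng1, the skeletal muscle gamma subunit, at 5.05 and 5.17, Cacng4 at 5.42 and 5.37, and Cacng8 at 5.20 and 5.39. The latter pair belongs to a branch known in brain for regulating AMPA-type glutamate receptors. Under the filter the differences ran from -0.19 for Cacng3 to 0.26 for Cacng7. Between them lay Cacng2 (3.48 and 3.37), Cacng5 (3.76 and 3.85) and Cacng6 (4.61 and 4.80).

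**Figure D3:**
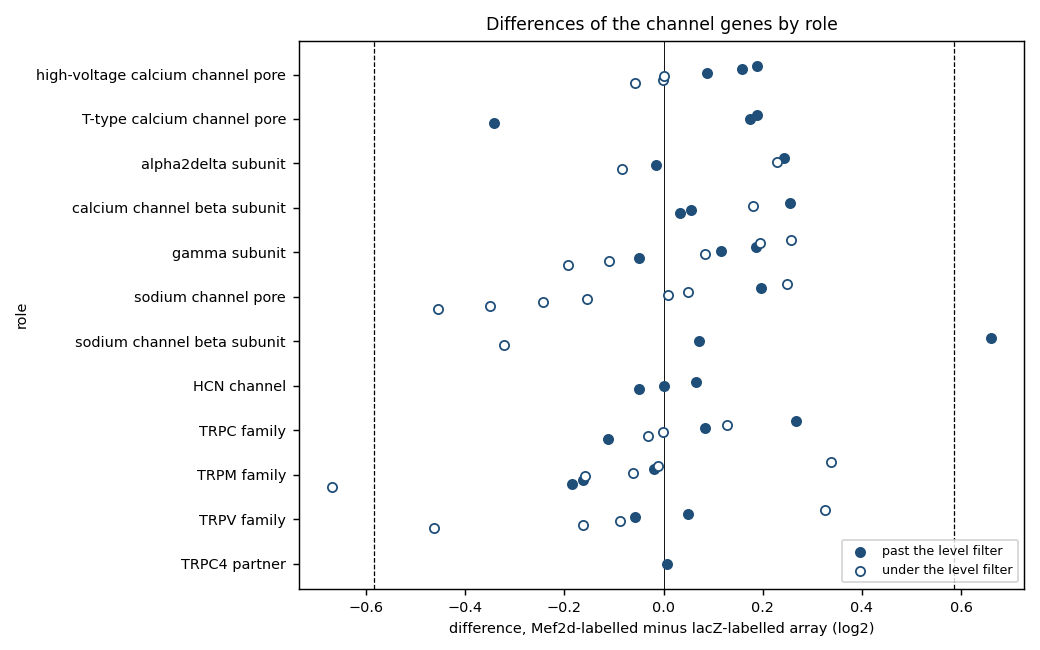
Difference of each channel gene between the arrays (x axis, log2, Mef2d-labelled minus lacZ-labelled) by role, filled past the level filter and open under it, with dashed lines at 1.5-fold. The sodium channel beta subunit row holds Scn3b at 0.66, and the 3 HCN genes lie between -0.05 and 0.06.

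The promoters of the channel genes were read from RefSeq (build GRCr8) as the 250 bases before each annotated start, which was possible for 46 of the 60 genes. These are shown because they are a property that the selection did not use and because base composition differed with level. The median GC content was 65.0% over 18 genes past the filter and 53.8% over 28 under it. All named genes with a promoter showed the same order, 60.4% and 46.8%, so the contrast is not particular to channels. The GC-box letters GGGCGG (both strands) occurred in 11 of the 18 and 8 of the 28, against 59.3% and 19.6% of all named genes. Without the split it was in 19 of 46 channel genes, 47.8% of named genes and 30.5% of all promoters in the table. Gene shares count the letters before any start of a gene. Shares of all promoters instead count each of 33469 promoters singly, with no limit to genes named on the array. TATAAA (both strands) occurred in 2 of the 46 genes, Cacng2 and Trpm8, both under the filter, in 11.4% of named genes and in 12.9% of all promoters. The MEF2 consensus (both strands) was in none of the 46, in 2.56% of named genes and in 2.96% of all promoters, which says only that these letters are not in these windows. Scn3b is not among the 46.

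Promoters of the L-type pore gene Cacna1c, of the beta subunit gene Cacnb2 at both of its annotated starts, and of the dim gamma subunit gene Cacng2 show how far single windows depart from these medians. The windows lie at chr4:154051749-154051998 (minus strand), chr17:82472965-82473214 and chr17:82596542-82596791 (both plus strand) and chr7:111577758-111578007 (minus strand), with GC contents of 54.4%, 73.2%, 45.6% and 38.4%. Each is written 5′ to 3′ on the gene's strand, and capitals mark GGGCGG or TATAAA on either strand, including overlapping copies. The genes were chosen after their values were seen.
Cacna1c: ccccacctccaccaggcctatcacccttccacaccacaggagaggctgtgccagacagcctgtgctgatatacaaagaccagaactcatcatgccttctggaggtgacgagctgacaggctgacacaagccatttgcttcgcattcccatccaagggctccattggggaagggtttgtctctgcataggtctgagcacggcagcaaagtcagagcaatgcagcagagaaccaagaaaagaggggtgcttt
Cacnb2, upstream start: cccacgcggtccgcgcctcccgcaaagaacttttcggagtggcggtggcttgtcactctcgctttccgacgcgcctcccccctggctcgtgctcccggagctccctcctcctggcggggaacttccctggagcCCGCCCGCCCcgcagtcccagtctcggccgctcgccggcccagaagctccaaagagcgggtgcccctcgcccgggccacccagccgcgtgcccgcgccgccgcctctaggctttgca
Cacnb2, downstream start: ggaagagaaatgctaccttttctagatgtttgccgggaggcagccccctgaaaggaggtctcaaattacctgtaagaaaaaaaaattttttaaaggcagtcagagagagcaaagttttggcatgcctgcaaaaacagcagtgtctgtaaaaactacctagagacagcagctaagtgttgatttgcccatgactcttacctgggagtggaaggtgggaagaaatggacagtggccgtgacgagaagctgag
Cacng2: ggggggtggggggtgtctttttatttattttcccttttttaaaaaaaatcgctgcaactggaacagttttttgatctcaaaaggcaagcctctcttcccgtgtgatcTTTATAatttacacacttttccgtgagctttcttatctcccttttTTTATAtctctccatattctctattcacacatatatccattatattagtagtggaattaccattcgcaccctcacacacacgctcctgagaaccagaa
Only the upstream Cacnb2 start carries GC boxes, 2 overlapping copies, and only Cacng2 carries TATAAA letters, at 2 places. Which Cacnb2 start these cells use was not measured.

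Among sodium channel pore genes, Scn1a, best known from brain, was the member above the filter, with 6.39 on the lacZ-labelled and 6.58 on the Mef2d-labelled array (difference 0.20). The other 7 pore genes lay under it. Scn4a, the pore of skeletal muscle, had 4.51 and 4.06 (-0.45) and Scn8a 4.99 and 4.64 (-0.35), while Scn7a had 4.35 and 4.60 (0.25). Scn9a and Scn11a, known from sensory neurons, read 3.35 and 3.11, and 3.68 and 3.52, and Scn10a 3.72 and 3.77. Scn2a1, now named Scn2a, had 4.83 and 4.84. The mean levels of all 7 sit in the olfactory receptor range, so their signals cannot be told from background.

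The beta subunits differed among themselves. Besides Scn3b, Scn4b had 4.95 and 5.02 (difference 0.07) and Scn2b had 4.32 and 3.99 (-0.32), the latter under the filter. Of the 3 named beta genes, Scn3b was the one far above the filter on both arrays.

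HCN channels carry the pacemaker current and had nearly equal levels on both arrays. Hcn4, the principal sinoatrial isoform, had a level of 8.44 on each array, and its difference of 0.00 is the smallest among the genes past the filter. Hcn2, the main ventricular isoform, had 7.35 and 7.42 and Hcn3 5.61 and 5.56. Pacemaker and conduction factors, a list of 15 symbols of which 12 genes were measured above the filter, had none past 1.5-fold. Its extremes were Bmp4, a signalling factor, at 0.36 (9.33 and 9.70) and Tbx3, a repressor that marks conduction tissue, at -0.26 (6.01 and 5.76). Of these 12, 7 were above 0 and their median was 0.04. All genes past the filter had 48.2% above 0, a median of -0.01 and 1.38% past 1.5-fold. Isl1 and Shox2, factors of the sinoatrial node, had levels under the filter.

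TRP channels mostly lay under the filter, 12 of 20, and the 8 above it had a median of -0.04. Trpc6, a diacylglycerol-activated channel linked to hypertrophic signalling in heart, had 6.15 on the lacZ-labelled and 6.42 on the Mef2d-labelled array (0.27, or 1.20-fold), with 909 of 11614 genes at least as high. Trpc1 had 8.30 and 8.39. Trpc2, which serves pheromone sensing in rodents, had 5.25 and 5.14. Trpc4 (4.26 and 4.23), Trpc5 (4.46 on both) and Trpc7 (4.19 and 4.32) lay under the filter. The adaptor gene Trpc4ap read 9.22 on both arrays.

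Trpm7, a magnesium- and calcium-permeable channel fused to a kinase, had nearly equal levels of 9.35 and 9.33. Trpm4, a calcium-activated channel whose human gene is linked to conduction disease, had 6.43 and 6.27, and Trpm3 5.51 and 5.32. All 3 TRPM genes past the filter were below 0, by at most 0.19, and none exceeded 1 robust SD of genes of similar level. Trpm5, a calcium-activated channel of taste cells, was 1.59-fold lower with 5.01 on the lacZ-labelled and 4.34 on the Mef2d-labelled array. Its mean of 4.68 is under the filter and inside the receptor range. Of 4978 genes under the filter, 0.542% were at least 1.5-fold lower. The cold sensor gene Trpm8 had 4.02 and 4.35, and Trpm1, Trpm2 and Trpm6 differed by -0.16, -0.06 and -0.01, all under the filter.

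In the TRPV family, Trpv2, which is expressed in heart muscle, had 7.17 and 7.22 (0.05), and Trpv4, a channel opened by cell swelling, had 5.16 and 5.10 (-0.06). The heat sensor genes Trpv1 and Trpv3 had opposite signs, 0.33 (4.01 and 4.33) and -0.46 (4.41 and 3.95). The epithelial calcium channel genes Trpv5 and Trpv6 had 3.72 and 3.63, and 4.45 and 4.29. These 4 dim TRPV genes lie in the receptor range.

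Genes that regulate or anchor these channels were taken from lists by role. Among 21 measured regulators of the L-type channel above the filter, 1 was at least 1.5-fold higher, 1 at least 1.5-fold lower, and the median was 0.03. These 2 were both anchors that hold protein kinase A near its targets. Akap5 was 1.76-fold lower, with 6.58 on the lacZ-labelled and 5.77 on the Mef2d-labelled array, and Akap7 was higher by 0.59 on the log2 scale, with 6.64 and 7.23, just past the threshold. A background of 1.38% in either direction holds here too, and counts of 1 gene have no replicate check. The kinase's catalytic subunit gene Prkacb had 7.97 and 7.50 (-0.47). The calcium channel inhibitor genes Rrad (7.17 and 7.28) and Gem (7.88 and 7.48) stayed within 1.5-fold.

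Of 13 measured partners of sodium channels above the filter, Cav3, the muscle caveolin, was 1.61-fold higher, with 8.64 on the lacZ-labelled and 9.34 on the Mef2d-labelled array. The lowest was Fgf11, a homologous factor gene, at -0.23 (4.97 and 4.75). Its mean of 4.86 is just past the filter and inside the olfactory receptor range. The list had 9 genes above 0 and a median of 0.06. Over all genes past the filter, 48.2% were above 0, the median was -0.01 and 1.38% reached 1.5-fold in either direction. Gpd1l, a dehydrogenase-like gene known for affecting sodium current, differed by 0.30 (8.03 and 8.33) and the gap junction gene Gja1 by 0.29 (10.31 and 10.61).

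Store-operated calcium entry, in which STIM sensors open ORAI pores, had none of 12 genes past 1.5-fold and a median of 0.07. Homer2, a scaffold gene, was highest at 0.48 (8.50 and 8.99), and Itpr1, an inositol trisphosphate receptor gene, lowest at -0.24 (8.52 and 8.28). Orai1 (8.48 and 8.50) and Stim1 (7.63 and 7.73) were close to equal. Other cation channels outside the families had 10 genes above the filter, none past 1.5-fold, from Accn2, now Asic1, at -0.23 (5.55 and 5.32) to Pkd1, or polycystin, at 0.14 (9.16 and 9.30). With 1.38% of all genes past the filter reaching 1.5-fold and a median of -0.01 over them, lists this short say little.

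**Figure D4:**
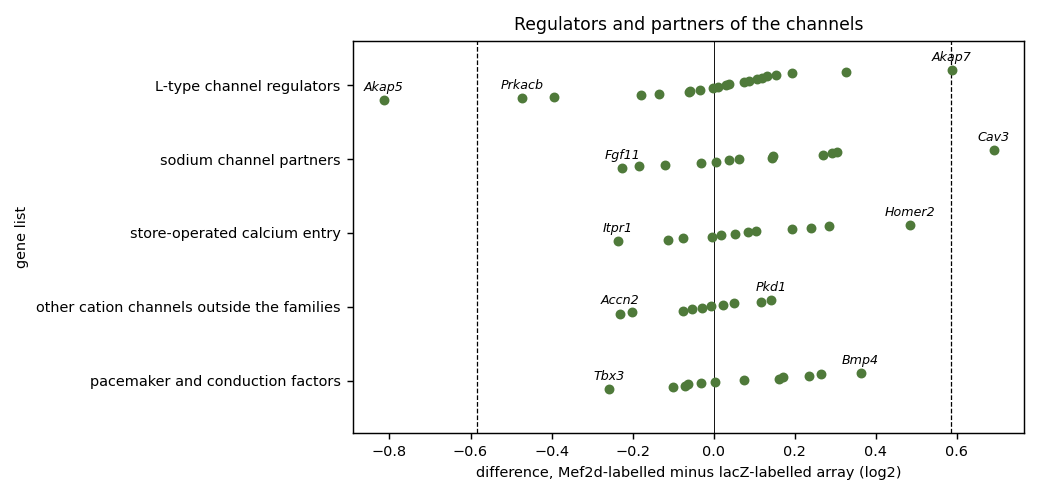
Difference between the arrays (x axis, log2, Mef2d-labelled minus lacZ-labelled) of the regulators and partners past the level filter, 1 row of points per gene list, with dashed lines at 1.5-fold. Akap5 (-0.81) lies beyond the lower line, and Akap7 (0.59) and Cav3 (0.69) beyond the upper one.

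Potassium channel genes and ligand-gated channel genes gave a measure of how other channel families behaved. Of 53 potassium channel genes past the filter, 22 were above 0, with a median of -0.02 and 1 past 1.5-fold. Of 20 ligand-gated channel genes, 10 were above 0, the median was -0.02 and 1 was past 1.5-fold. For all genes past the filter these values were 48.2%, -0.01 and 1.38%. The calcium channel genes past the filter had 11 of 14 above 0 and a median of 0.14, and their lowest and highest values were -0.34 and 0.25. In the brighter part of the named genes, from their median level (6.51) upward, the medians of the families were closer. There the median was 0.06 over 15 channel members, 0.13 over the 8 calcium channel genes among them, 0.05 over 17 potassium channel genes and 0.16 over 6 ligand-gated genes. Above 0 were 13 of the 15 channel members and 7 of the 8 calcium channel genes. The same held for 11 of 17 potassium channel genes, 4 of 6 ligand-gated genes and 50.5% of all named genes in that part. With 1 array per condition the difference between these families could not be tested.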

How the data were processed

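The authors deposited log2 values for 19239 probe sets on 2 arrays, made with RMA and the affy package 1.36.1, per the submitters' processing notes. No source used here gives the probe set definition. RMA compresses differences of dim probe sets, and having 1 array per condition limits the precision. Gene symbols came from the platform annotation, which names 16592 probe sets, each with its own symbol. The number in the probe set name was a RefSeq gene identifier (GRCr8) for all 60 channel genes, and 59 symbols were the same there. No per-sample column was left out.

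From these values differences were taken without further normalization (Python 3.11.15, pandas 2.3.3). Genes with a mean level under the 30th percentile were set apart, and 1.5-fold was the size counted. Robust SDs came from 20 bins of level and ran from 0.11 to 0.21. The differences, the 1.5-fold count, quantile normalization and the removal of a trend with level were tested on simulated data. Marker sums, promoter counts and neighbouring pairs were not. Named genes follow a rule by role, extremes and threshold. The remaining members were also named so that each is accounted for. The members, lists and rule were chosen with earlier results of these data known. In the lists Prkacb, Rrad, Gem, Gpd1l, Gja1, Orai1, Stim1, Isl1 and Shox2 were named after their values were seen. There, symbols without a matching probe set were left out. Alternatives covered scaling, level filter, fold size and mean against median. Probe sets the annotation leaves unnamed were not used here.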

Additional observations from a re-analysis of the deposited data

How the results depend on the processing

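The count of channel genes at least 1.5-fold higher stayed at 1 (Scn3b) under the other scalings and level filters, and was 0 at 2-fold. The count lower was 1 without a level filter (Trpm5) and otherwise 0. Over all genes, 98 higher and 62 lower became 408 and 287 at 1.3-fold and 9 and 5 at 2-fold, and 30 genes were lower among the 8296 at or above the median level, where fewer genes were counted. The median of the channel genes, 0.06 with the filter, was 0.0035 over all 60 and lay between 0.05 and 0.08 under the scalings. Of the 29 genes, 3 changed sign under a scaling, each with a difference of at most 0.03 in size. The alternative that names further probe sets was not run. No replicate could be left out. No paired analysis was possible because there is only 1 array for each shRNA. The 31 genes under the filter are limited by dim signal, and no direction is given weight for them.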

Other observations

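Some channel genes lie next to each other in the rat genome, with at most 2 protein-coding genes between them in the RefSeq table (GRCr8). There were 11 such neighbouring pairs, and the differences had the same sign in 3. In the gamma subunit cluster of Cacng6, Cacng8 and Cacng7 on chromosome 1 the differences were 0.19, 0.19 and 0.26, with Cacng6 and Cacng7 under the level filter. The adjacent heat sensor genes Trpv1 and Trpv3 on chromosome 10 had 0.33 and -0.46, and the adjacent sodium pore genes Scn1a, Scn9a and Scn7a on chromosome 3 had 0.20, -0.24 and 0.25. Both genes lay above the filter in 1 of the 11 pairs, Cacng1 and Cacng4, so these values describe mostly dim signal. These genes were chosen after their values were seen.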
